A study of Mus musculus with 20 samples.

Results

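Imprinted genes are transcribed mainly from the allele of 1 parent, and their levels were followed here in whole hearts of mouse embryos. The set was the 42 genes imprinted in mouse embryo tissues that had been listed for this work by name, with Ddc included because it is imprinted in the embryonic heart. The list was made with earlier results of these data known, in which Ddc was among the largest decreases between genotypes. All 42 were found among the 48795 Ensembl genes of the deposited table, and 39 passed a filter on low values that left 15304 genes for testing. The 42 genes lie in 17 domains on 9 chromosomes, 19 being listed as expressed from the maternal allele and 23 from the paternal allele. The table holds 1 value per gene and heart and does not separate the alleles, so it measures how much RNA each gene gave and not from which parent it came.

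The 20 hearts were taken at E13.5 from embryos on a C57BL/6J background. Of these, 10 were wildtype (WT), 5 were Dp1Tyb, which carry a duplication of mouse chromosome 16 from Lipi to Zbtb21, and 5 were Dp1TybDyrk1a+/+/-, which carry the same duplication but have 1 of their 3 Dyrk1a copies replaced by the null allele Dyrk1atm1Mla. Dp1Tyb is a model of Down syndrome, and removing 1 copy of Dyrk1a, a gene for a protein kinase, asks which changes depend on its extra copy. None of the 42 genes lies on chromosome 16, so every difference between genotypes is in a gene present in its usual number of copies. The labels do not say which WT heart shared a litter with which mutant heart. A whole heart mixes many cell types, so fewer cells of a type and less RNA per cell cannot be told apart.

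Imprinted genes sit in clusters controlled by a region whose DNA methylation differs between the parental chromosomes. Several clusters use a long non-coding RNA made from 1 allele, such as H19, Airn, Kcnq1ot1 and Meg3, beside protein-coding genes made from the other. Many of the proteins act on fetal growth: Igf2 is a growth factor, Igf2r clears it from the cell surface, Grb10 is an adaptor that dampens insulin and IGF receptor signaling, and Plagl1 is a transcription factor known to act on other imprinted genes. In the developing heart Ddc, which encodes the aromatic amino acid decarboxylase that makes dopamine and serotonin, is transcribed from the paternal allele, next to the maternally expressed Grb10.

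The values are log2 normalized counts, and a log2 fold change is the difference of 2 group means on that scale. Dyrk1a lay between 11.28 and 11.43 in WT hearts, between 11.66 and 11.75 in Dp1Tyb hearts and between 11.70 and 11.85 in hearts labelled Dp1TybDyrk1a+/+/-. The value was no lower in the hearts labelled as carrying the null allele. Per the study's methods that allele has lost internal exons, which a value per gene does not show, so it checks the label neither way. The hearts stood close together except for heart A15, labelled Dp1TybDyrk1a+/+/-, and WT heart A10. Their values differed from the median heart by 0.175 and 0.103 on average over genes with a mean log2 value of at least 8, against 0.0345 to 0.0600 in the other 18 hearts. The normalized counts of 37 transcripts of the mitochondrial genome added up to 1846000 in A15 and 1278000 in A10, against 755900 to 981300 in the other 18 hearts. The RNA Xist, made from the inactive X chromosome, was high in 3 of 10 WT hearts, in 4 of 5 Dp1Tyb hearts and in 1 of 5 hearts labelled Dp1TybDyrk1a+/+/-. Values named for these 5 hearts that A15 decides are also given without it.

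The levels of the 42 genes spanned a wide range. Per kilobase of annotated exon, the mean normalized count in WT hearts was 59600 for H19, 20700 for Igf2, 6120 for Mest, 5120 for Igf2r and 3920 for Grb10. Plagl1 followed at 1990 and Gnas, which encodes a G-protein subunit, at 1910. Peg3, a zinc-finger gene, stood at 1140, and the other 34 genes were at or below 428, Ddc among them at 115. The 3 genes below the filter, a mean normalized count of 10 over all hearts, were Dio3 at 4.27, Phlda2 at 3.99 and Ascl2 at 1.62. Dio3 encodes a thyroid hormone deiodinase, and Phlda2 and Ascl2 are best known from the placenta. The weakest gene that passed was Slc22a18, at a mean log2 value of 3.33 against the limit of 3.32.

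Ddc carried the only difference between genotypes that passed the test, and the stretches before its annotated starts are shown beside those of its neighbor Grb10. The domain lies on chromosome 11 of GRCm38.p6, with Ddc at chr11:11814101-11898144, Grb10 at chr11:11930499-12037428 and Cobl, a gene for an actin nucleator, at chr11:12236676-12465022. RefSeq gives Ddc and Grb10 a pair of start sites each, on the minus strand. The 250 bases before each start are printed 5′ to 3′ with every CG, the dinucleotide that carries DNA methylation, in capitals.
Ddc, chr11:11898145-11898394: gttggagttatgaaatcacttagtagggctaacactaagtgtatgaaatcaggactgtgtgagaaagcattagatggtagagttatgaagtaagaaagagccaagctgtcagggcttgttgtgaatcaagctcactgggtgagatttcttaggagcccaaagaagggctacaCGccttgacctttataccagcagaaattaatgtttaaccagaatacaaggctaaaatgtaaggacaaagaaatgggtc
Ddc, chr11:11890409-11890658: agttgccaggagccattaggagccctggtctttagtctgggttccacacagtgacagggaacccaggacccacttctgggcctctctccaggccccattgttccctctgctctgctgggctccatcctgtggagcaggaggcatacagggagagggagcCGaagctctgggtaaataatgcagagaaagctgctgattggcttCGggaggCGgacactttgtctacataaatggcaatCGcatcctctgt
Grb10, chr11:12037421-12037670: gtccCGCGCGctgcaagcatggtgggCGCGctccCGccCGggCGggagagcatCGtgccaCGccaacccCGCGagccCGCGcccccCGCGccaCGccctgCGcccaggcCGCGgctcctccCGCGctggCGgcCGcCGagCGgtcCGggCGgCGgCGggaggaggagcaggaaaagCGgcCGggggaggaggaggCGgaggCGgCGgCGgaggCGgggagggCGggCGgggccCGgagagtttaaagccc
Grb10, chr11:12027972-12028221: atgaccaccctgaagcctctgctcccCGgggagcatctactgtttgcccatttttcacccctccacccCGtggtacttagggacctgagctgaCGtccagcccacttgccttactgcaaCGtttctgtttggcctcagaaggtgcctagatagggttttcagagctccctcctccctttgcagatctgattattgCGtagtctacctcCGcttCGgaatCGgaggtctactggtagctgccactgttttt
The Ddc windows hold 1 and 4 CG, and the Grb10 windows hold 40 and 8. Over 32851 windows of the same length the median was 6 CG, 18.8% held at most 1 and 1.31% held at least 40. The motif TGCCGC, searched on both strands, is absent from these 4 windows and stood in 8 of 57 windows of 35 imprinted genes and in 8.68% of all windows. It is the sequence bound in its methylated form by Zfp57, a protein that keeps imprints.

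Ddc was lower in Dp1Tyb hearts. Its log2 value was 9.89 in A3, 9.91 in A4, 9.95 in A6, 9.89 in A7 and 9.98 in A12, whereas the 10 WT hearts ran from 10.09 through a median of 10.18 to 10.42. Every Dp1Tyb heart lay below every WT heart. The log2 fold change was -0.29 (SE 0.062, n = 5 and 10), a fold of 0.819, with an adjusted P = 0.0110 over all genes tested (limma). The exact two-sided permutation test over the hearts gave P = 0.000666, the smallest value that 5 against 10 hearts allow. The decrease of Ddc was known from earlier results of these data, so neither P-value is independent support for it. In this comparison 3.08% of all genes tested were called, and of the imprinted genes 1 of 39 was called.

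The decrease was seen in each sequencing lane. Dp1Tyb minus WT was -0.25 in lane 3 (2 against 4 hearts), -0.33 in lane 6 (2 against 4) and -0.28 in lane 7 (1 against 2). When single hearts were removed, in 20 fits, it stayed between -0.302 and -0.265 and was called in all 20. With Xist as a covariate it was -0.25 and no longer called (adjusted P = 0.0585, limma), and with A10 and A15 left out as well it was -0.24 and called (adjusted P = 0.00218). Heart A6, the Dp1Tyb heart with low Xist, had a Ddc value of 9.95, below all WT hearts but above Dp1Tyb hearts A3, A4 and A7. The WT hearts with high Xist, A11, A13 and A19, had 10.17, 10.17 and 10.09, all below the WT median. Heart A14, with high Xist and labelled Dp1TybDyrk1a+/+/-, had 10.14.

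Hearts labelled Dp1TybDyrk1a+/+/- did not share that position as a group. Ddc stood at 10.33 in A9, 10.14 in A14, 9.88 in A15, 10.34 in A17 and 10.28 in A18. Heart A15 was as low as the Dp1Tyb hearts, and the other 4 lay within the WT range. Against WT the log2 fold change was -0.02 (SE 0.062, adjusted P = 0.935, limma), and 0.06 without A15. Dp1Tyb against Dp1TybDyrk1a+/+/- gave -0.27 (SE 0.071) and missed the threshold (adjusted P = 0.0608, limma, with an exact permutation P = 0.0476). Without A15 that difference was -0.35 and called (adjusted P = 0.00532, limma), and Dp1Tyb hearts then lay below all 4 remaining hearts. The difference was -0.25, -0.40 and -0.19 in lanes 3, 6 and 7. Both comparisons of a duplication genotype with WT share the 10 WT hearts.

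Neither neighbor of Ddc passed the test in any comparison. Grb10 was 15.24, 15.22, 15.24, 15.25 and 15.28 in Dp1Tyb hearts A3, A4, A6, A7 and A12, against 15.24 to 15.36 in WT hearts with a median of 15.30. In Dp1Tyb 2 hearts fell short of the lowest WT value and 3 were within the WT range, and the log2 fold change was -0.05 (SE 0.031, adjusted P = 0.446, limma). Cobl was 9.44, 9.37, 9.35, 9.38 and 9.35 in the same Dp1Tyb hearts and 9.11 to 9.41 in WT hearts, with a log2 fold change of 0.09 (SE 0.054, adjusted P = 0.469). In hearts labelled Dp1TybDyrk1a+/+/-, Grb10 ran from 15.25 to 15.38 and Cobl from 9.11 to 9.55, with log2 fold changes against WT of 0.003 and 0.06, or -0.02 and 0.004 without A15.

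**Figure D1:**
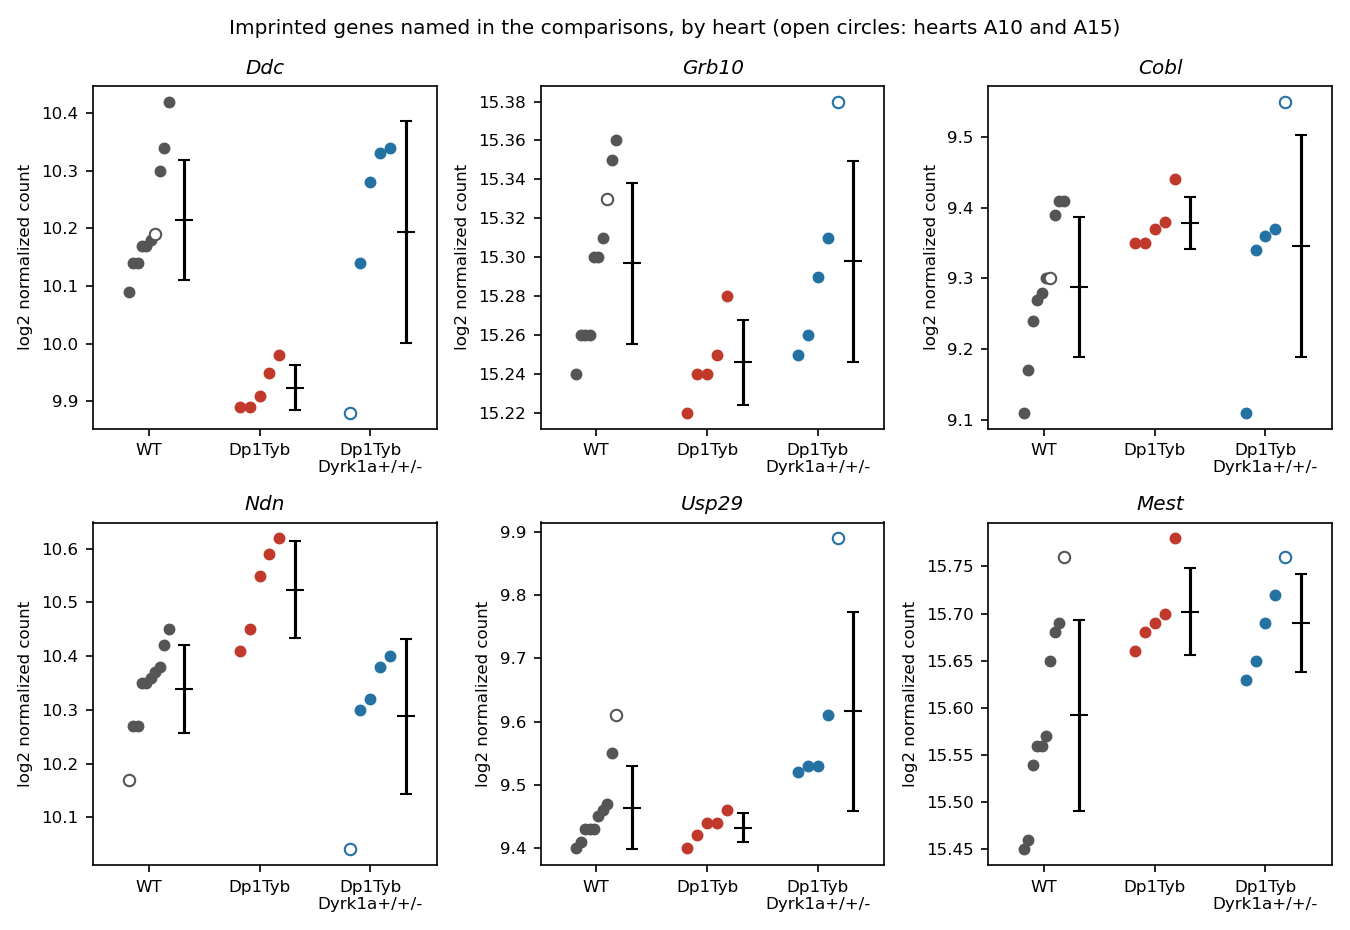
Log2 normalized counts (vertical axes) of Ddc, Grb10, Cobl, Ndn, Usp29 and Mest in each WT, Dp1Tyb and Dp1TybDyrk1a+/+/- heart, with the mean and SD of each genotype as bars; open circles are hearts A10 and A15. The 5 Dp1Tyb hearts sit between 9.89 and 9.98 for Ddc, below all WT hearts, and A15 is the one Dp1TybDyrk1a+/+/- heart at that level.

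Ndn came next, on the other side of the threshold. It encodes necdin, a protein of the MAGE family linked to growth arrest, and lies at chr7:62348277-62349928 in the cluster of the Prader-Willi region, on the plus strand. The 250 bases before its start, with CG in capitals, are given because its promoter is known to be methylated on the maternal allele, and they hold 5 CG.
Ndn, chr7:62348027-62348276: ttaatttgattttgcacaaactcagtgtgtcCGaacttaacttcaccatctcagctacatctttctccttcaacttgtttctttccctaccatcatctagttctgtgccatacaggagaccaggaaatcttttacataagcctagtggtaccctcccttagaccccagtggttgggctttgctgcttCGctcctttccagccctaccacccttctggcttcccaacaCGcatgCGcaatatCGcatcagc
Ndn was 10.62 in A3, 10.59 in A4, 10.45 in A6, 10.41 in A7 and 10.55 in A12, the 5 Dp1Tyb hearts. The 10 WT hearts ran from 10.17 through a median of 10.36 to 10.45. A7 lay within the WT range and A6 just above it, and 4 of 5 Dp1Tyb hearts exceeded the highest WT heart. The log2 fold change was 0.18 (SE 0.052) with an adjusted P = 0.0557 (limma) and an exact permutation P = 0.00266. Ndn was picked by its small limma P-values, so its unadjusted permutation P-values are no independent support. In lanes 3, 6 and 7 the difference was 0.17, 0.18 and 0.22.

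The call on Ndn against WT depended on the hearts used and on the processing, and was made in 11 of 34 settings. Ndn passed the threshold without WT heart A2 (adjusted P = 0.0496, limma), without Dp1Tyb heart A7 (0.0432) or without A15 (0.00793). A15 is in neither group and enters there only through the shared variance estimate. With all hearts kept Ndn passed with quantile normalization (0.0484), median centring (0.0480), a filter at a mean count of 100 (0.0491) and heart weights (0.00352). With only the 2 groups fitted it passed as well (0.0172). With A10 and A15 both left out the log2 fold change was 0.17 and called (adjusted P = 0.00600), and with Xist as a covariate it was 0.16 (adjusted P = 0.193). In hearts labelled Dp1TybDyrk1a+/+/- Ndn was 10.32, 10.40, 10.04, 10.38 and 10.30 in A9, A14, A15, A17 and A18, and all 5 Dp1Tyb hearts lay above all 5 of these. Dp1Tyb against Dp1TybDyrk1a+/+/- gave 0.24 (SE 0.060, adjusted P = 0.0519, exact permutation P = 0.00794, the smallest that 5 against 5 hearts allow). A15 held the lowest Ndn value of all 20 hearts, and without it that difference was 0.18 (adjusted P = 0.0753, limma).

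The other genes of that cluster stood on the same side without passing. Dp1Tyb minus WT was 0.09 for Peg12, 0.06 for Snrpn, which encodes a splicing protein, and 0.03 for Magel2, a further MAGE gene. Their adjusted P-values were 0.295, 0.369 and 0.608 (limma). Between Dp1Tyb and Dp1TybDyrk1a+/+/- hearts Peg12 differed by 0.15 (SE 0.046, adjusted P = 0.0966), with 4 of 5 Dp1Tyb hearts above all 5 others, while Snrpn differed by 0.001. So all 4 genes of the cluster were above 0 in both comparisons, 0 of 4 past the threshold.

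Mest, a paternally expressed gene for a hydrolase of the endoplasmic reticulum, followed Ddc and Ndn in the order of P-values against WT. It was 15.66, 15.69, 15.70, 15.78 and 15.68 in Dp1Tyb hearts A3, A4, A6, A7 and A12 and 15.45 to 15.76 in WT hearts. Only A7 lay above the WT range, and the log2 fold change was 0.11 (SE 0.047, adjusted P = 0.254, limma). Hearts labelled Dp1TybDyrk1a+/+/- had 15.63, 15.65, 15.76, 15.72 and 15.69 in A9, A14, A15, A17 and A18, with a log2 fold change of 0.10 (SE 0.047, adjusted P = 0.518).

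Among hearts labelled Dp1TybDyrk1a+/+/- against WT, 0 of 39 imprinted genes passed the test, beside 0.712% of all genes (limma). At an unadjusted P-value under 0.05 there were 3 of the 39, beside 9.64% of all genes. The smallest P-value was that of Usp29, a paternally expressed ubiquitin-protease gene next to Peg3. Usp29 was 9.52, 9.53, 9.89, 9.61 and 9.53 in A9, A14, A15, A17 and A18, against 9.40 to 9.61 with a median of 9.44 in WT hearts and 9.40 to 9.46 in Dp1Tyb hearts. All 5 lay above all 5 Dp1Tyb hearts, and A15 stood far above the other 4. The log2 fold change against WT was 0.15 (SE 0.047, adjusted P = 0.220), and 0.08 without A15 (adjusted P = 0.265, limma). With A10 and A15 left out it was 0.10 and called (adjusted P = 0.0455).

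Begain, a gene at the edge of the Dlk1 domain, was 5.70, 5.69, 5.91, 5.73 and 5.65 in the same hearts and 5.69 to 6.02 in WT hearts. All but A15 lay at the bottom of the WT range, and the log2 fold change was -0.13 (SE 0.047, adjusted P = 0.358, limma). Without A10 and A15 it was -0.18 and called (adjusted P = 0.0422), but not with lane as a further covariate. There 0 of 39 imprinted genes were called, beside 1.08% of all genes. Dp1Tyb against Dp1TybDyrk1a+/+/- likewise had 0 of 39 called, beside 1.16% of all genes called. At an unadjusted P-value under 0.05 there were 8 of the 39, beside 18.5% of all genes. Usp29 followed Ndn and Ddc in the order of P-values there, with a log2 fold change of -0.18 (SE 0.054, adjusted P = 0.0875) and an exact permutation P = 0.00794. Usp29 too was picked by its small limma P-values, so that unadjusted permutation P-value is no independent support. Without A15 the value of Usp29 was -0.12 (adjusted P = 0.0984, limma).

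Leaving out A10 and A15, a choice made after the distance of these hearts was seen, raised the calls in all 3 comparisons. Dp1Tyb against WT then had 2 of 39 imprinted genes called, Ddc and Ndn, beside 7.70% of all genes. Hearts labelled Dp1TybDyrk1a+/+/- against WT had 2, Usp29 and Begain, beside 1.39% of all genes. Dp1Tyb against Dp1TybDyrk1a+/+/- had 4, with Ddc and Usp29 lower and Ndn and Blcap higher in Dp1Tyb hearts, beside 3.96% of all genes. Blcap is a small gene that overlaps Nnat on the opposite strand.

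The imprinted genes as a group had medians near 0. The median log2 fold change of the 39 genes was -0.002 in Dp1Tyb against WT hearts, beside -0.0019 over all genes tested. It was -0.0033 beside -0.003 in Dp1TybDyrk1a+/+/- against WT and 0.0008 beside 0.0028 between the duplication genotypes. The 17 genes listed as maternally expressed had a median of 0.004 in Dp1Tyb against WT, 9 of them above 0. The 22 listed as paternally expressed had a median of -0.003, 9 above 0. Ddc and Ndn, both listed as paternally expressed, marked the lowest and the highest value.

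**Figure D2:**
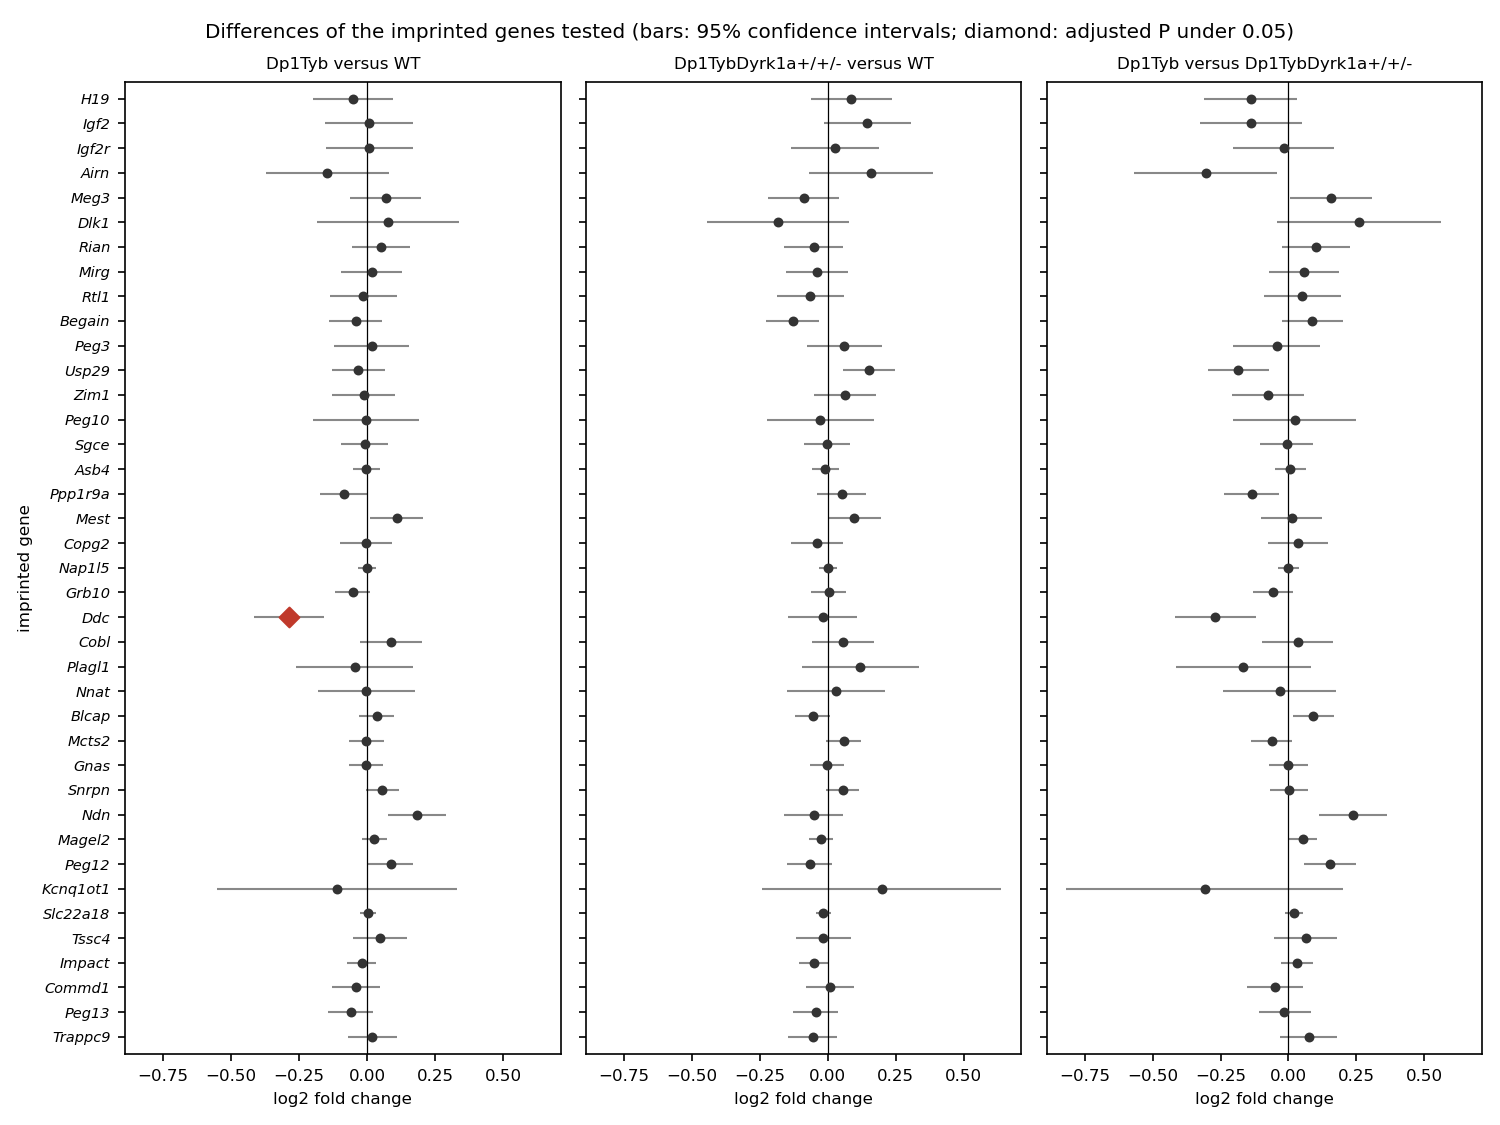
Log2 fold changes (horizontal axes) of the 39 imprinted genes tested, in order of their domains, in each comparison; bars are 95% confidence intervals and the diamond marks an adjusted P-value under 0.05. Ddc at -0.29 in Dp1Tyb against WT is the only diamond, and Kcnq1ot1 has the widest intervals.

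The growth pair H19 and Igf2 did not pass the test in Dp1Tyb hearts. H19 was 17.34, 17.29, 17.33, 17.35 and 17.29 in A3, A4, A6, A7 and A12, and Igf2 was 16.97 in A3, A6 and A12, 16.94 in A4 and highest in A7, 0.04 above the WT mean of 16.96. WT hearts ran from 17.27 to 17.67 for H19 and from 16.86 to 17.25 for Igf2, with A10 the highest for both. The log2 fold changes were -0.05 (SE 0.071, 95% interval -0.20 to 0.10) and 0.01 (SE 0.078, 95% interval -0.15 to 0.17). With quantile normalization the value of H19 turned to 0.19 and was not called. In hearts labelled Dp1TybDyrk1a+/+/- they were 0.09 (SE 0.071) and 0.15 (SE 0.078), with A15 at 17.77 and 17.54 above all 19 other hearts. Without A15 they were 0.01 and 0.04.

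Igf2r, the receptor that clears Igf2, varied more within genotypes than between them. It was 15.37, 15.40, 15.59, 15.77 and 15.67 in A3, A4, A6, A7 and A12 and 15.25 to 15.84 in WT hearts. The log2 fold change was 0.01 (SE 0.077) in Dp1Tyb and 0.03 (SE 0.077) in Dp1TybDyrk1a+/+/- against WT. Plagl1 was 13.92, 13.90, 13.99, 14.13 and 14.10 in the Dp1Tyb hearts and 13.92 to 14.34 in WT hearts, with a log2 fold change of -0.05 (SE 0.103). Peg3 was 13.97, 13.88, 13.86, 14.02 and 13.98 in the Dp1Tyb hearts and 13.80 to 14.04 in WT hearts, with a log2 fold change of 0.02 (SE 0.066). In hearts labelled Dp1TybDyrk1a+/+/- the log2 fold changes of Plagl1 and Peg3 against WT were 0.12 and 0.06, and A15 held the highest value of all 20 hearts for both. Without A15 both turned in sign, to -0.04 and -0.04. None of these 5 genes passed the test in any comparison.

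In the Peg10 cluster, Peg10, Sgce, Asb4 and Ppp1r9a lay between -0.09 and -0.002 in Dp1Tyb against WT hearts. Ppp1r9a, a gene for a protein that binds actin and protein phosphatase, was the lowest of them, with 3 of 5 Dp1Tyb hearts below all WT hearts (-0.085, SE 0.043, adjusted P = 0.348, limma). Nap1l5, Mcts2, Gnas, Impact and Commd1, each the 1 gene tested in its domain, lay between -0.04 and 0.0, and Peg13 and Trappc9 at -0.06 and 0.02. Airn had a log2 fold change of -0.15 (SE 0.109) and Kcnq1ot1 of -0.11 (SE 0.212) in Dp1Tyb against WT hearts, neither past the threshold.

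Cdkn1c, a maternally expressed inhibitor of the cell cycle beside Kcnq1ot1, was not among the 42 genes but was followed with them. It was 13.47, 13.43, 13.44, 13.48 and 13.39 in Dp1Tyb hearts A3, A4, A6, A7 and A12 and 13.21 to 13.47 in WT hearts, where A10 was the highest. The log2 fold change was 0.14 (SE 0.051, adjusted P = 0.171, limma, exact permutation P = 0.00400). Without A15 alone it was called (adjusted P = 0.0224), and without A10 and A15 it was 0.16 (adjusted P = 0.00164). Against WT, hearts labelled Dp1TybDyrk1a+/+/- differed by 0.13 (SE 0.051, adjusted P = 0.408), with A15 the highest at 13.70, and by 0.06 without A15.

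Wider lists of related genes held at most 1 call each in any comparison. Of all genes tested 3.08% were called in Dp1Tyb against WT. Of 36 other imprinted genes, Cdkn1c among them, 30 were tested, and Jade1, a gene for a chromatin-binding protein, fell by 0.10 in Dp1Tyb against WT hearts (SE 0.025, adjusted P = 0.0307, limma). Of 15 genes tested that set or keep imprints, Ctcf fell by 0.065 (SE 0.017, adjusted P = 0.0368). Ctcf encodes the insulator protein that binds between Igf2 and H19. Its mean log2 value was 11.12 (SD 0.0223) in the 5 Dp1Tyb hearts, and 11.18 (SD 0.0230) in the 10 WT hearts. The median log2 fold change of these 15 genes was -0.05, beside -0.0019 over all genes tested. With Xist as a covariate the adjusted P-values were 0.121 for Jade1 and 0.0700 for Ctcf.

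Of 16 genes of the IGF axis tested, 1 passed in each comparison. Of all genes, 3.08% were called in Dp1Tyb against WT, 0.712% in Dp1TybDyrk1a+/+/- against WT and 1.16% between the duplication genotypes. Igfbp4, a binding protein for IGFs, rose by 0.12 in Dp1Tyb against WT hearts (SE 0.030, adjusted P = 0.0346, and 0.100 with Xist as a covariate). Igfbp2 fell by 0.165 in hearts labelled Dp1TybDyrk1a+/+/- against WT (SE 0.032, adjusted P = 0.00873) and was higher by 0.20 in Dp1Tyb than in Dp1TybDyrk1a+/+/- hearts (SE 0.037, adjusted P = 0.0156). That last adjusted P-value was 0.0507 with lane and 0.0681 with Xist as a covariate.

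Cell type markers were followed beside these results. Of 12 marker lists none held a gene that passed the test in any comparison (limma), and no marker was listed at 0. The 8 cardiomyocyte markers summed to 370800 to 471400 normalized counts in WT hearts, to 372300 to 424300 in Dp1Tyb hearts and to 399300 to 433900 in hearts labelled Dp1TybDyrk1a+/+/-. Their median sum was 392600 in Dp1Tyb and 415300 in WT hearts, and the median log2 fold change of the 8 genes was -0.06 against WT and -0.10 against Dp1TybDyrk1a+/+/-, the same direction as Ddc. Nkx2-5, Myl7 and Myh6 went the other way against WT, at 0.059, 0.025 and 0.039, as did Nkx2-5 against Dp1TybDyrk1a+/+/- (0.011). The 8 trabecular markers summed to 24420 to 33320, 27650 to 32930 and 24960 to 31290 in the same order, and the 8 markers of neural crest, glia and neurons to 2226 to 2700, 2280 to 2515 and 2303 to 2848. The 8 markers of fibroblasts and mesenchyme summed to 128300 to 170500, 157300 to 173500 and 129500 to 183100. The lowest WT sum was that of A10, and the median sum was 167100 in Dp1Tyb and 159400 in WT hearts. The median log2 fold change of these 8 genes in Dp1Tyb against WT was 0.09, and Fn1 went the other way at -0.035. Erythroid markers varied the most, from 86300 to 405500 in WT hearts and from 172700 to 373700 in Dp1Tyb hearts. Of the organs next to the heart, 4 of 8 liver markers, 3 of 4 lung epithelium markers and 1 of 4 skeletal muscle markers passed the filter, and the liver markers summed to at most 89.4 in any heart. The part of these cell types in the change of Ddc was not tested.

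The largest differences of imprinted genes were between single hearts. Kcnq1ot1, the long non-coding RNA that silences its domain on the paternal allele, was 11.01 in A15 and between 9.07 and 9.44 in the other 4 hearts of that label. Airn, the RNA made antisense to Igf2r, was 10.32 in A15 against 9.37 to 9.49, and Plagl1 was 14.83 against 13.99 to 14.04. Peg10 and Dlk1 were higher by 0.69 and 0.68 in A15 than the mean of those 4 hearts, Igf2 by 0.54, Nnat by 0.50 and Peg3 by 0.49. Peg10 is a gene derived from a retrotransposon, and Nnat encodes a small membrane protein of the endoplasmic reticulum.

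In all, 25 of the 39 imprinted genes were above all 4 other hearts in A15 and 7 were below, beside 37.7% and 38.2% of all genes tested. The 7 lower genes were Ddc, Tssc4, Copg2, Ndn, Trappc9, Commd1 and Peg12, each by 0.15 to 0.39 on the log2 scale, and each was at its lowest of all 20 hearts. Copg2 and Trappc9 encode parts of vesicle transport complexes and Commd1 a regulator of copper handling and NF-κB. Of the marker lists, those of fibroblasts and mesenchyme (183100) and of neural crest, glia and neurons (2848) reached their highest sums of all hearts in A15. Their part in these values was not tested, nor was that of the mitochondrial transcripts given above.

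WT heart A10 shared much of that pattern. It lay above the other 9 WT hearts in 9 imprinted genes and below them in 7. All 9 of the higher genes, H19, Igf2, Plagl1, Mest, Sgce, Mirg, Usp29, Mcts2 and Gnas, were also among the 25 raised in A15. Of the 7 lower ones 6, Tssc4, Copg2, Ndn, Trappc9, Commd1 and Peg12, were also among the 7 lowered in A15, and the exception was Igf2r, at 15.25 against 15.44 to 15.84. Over all genes tested, 71.7% of those above the other hearts in A10 were also above in A15, and 76.8% of those below were also below. H19 at 17.67, Igf2 at 17.25 and Plagl1 at 14.34 in A10 stood far above the highest of the other 9 WT hearts, at 17.40, 16.98 and 14.15.

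**Figure D3:**
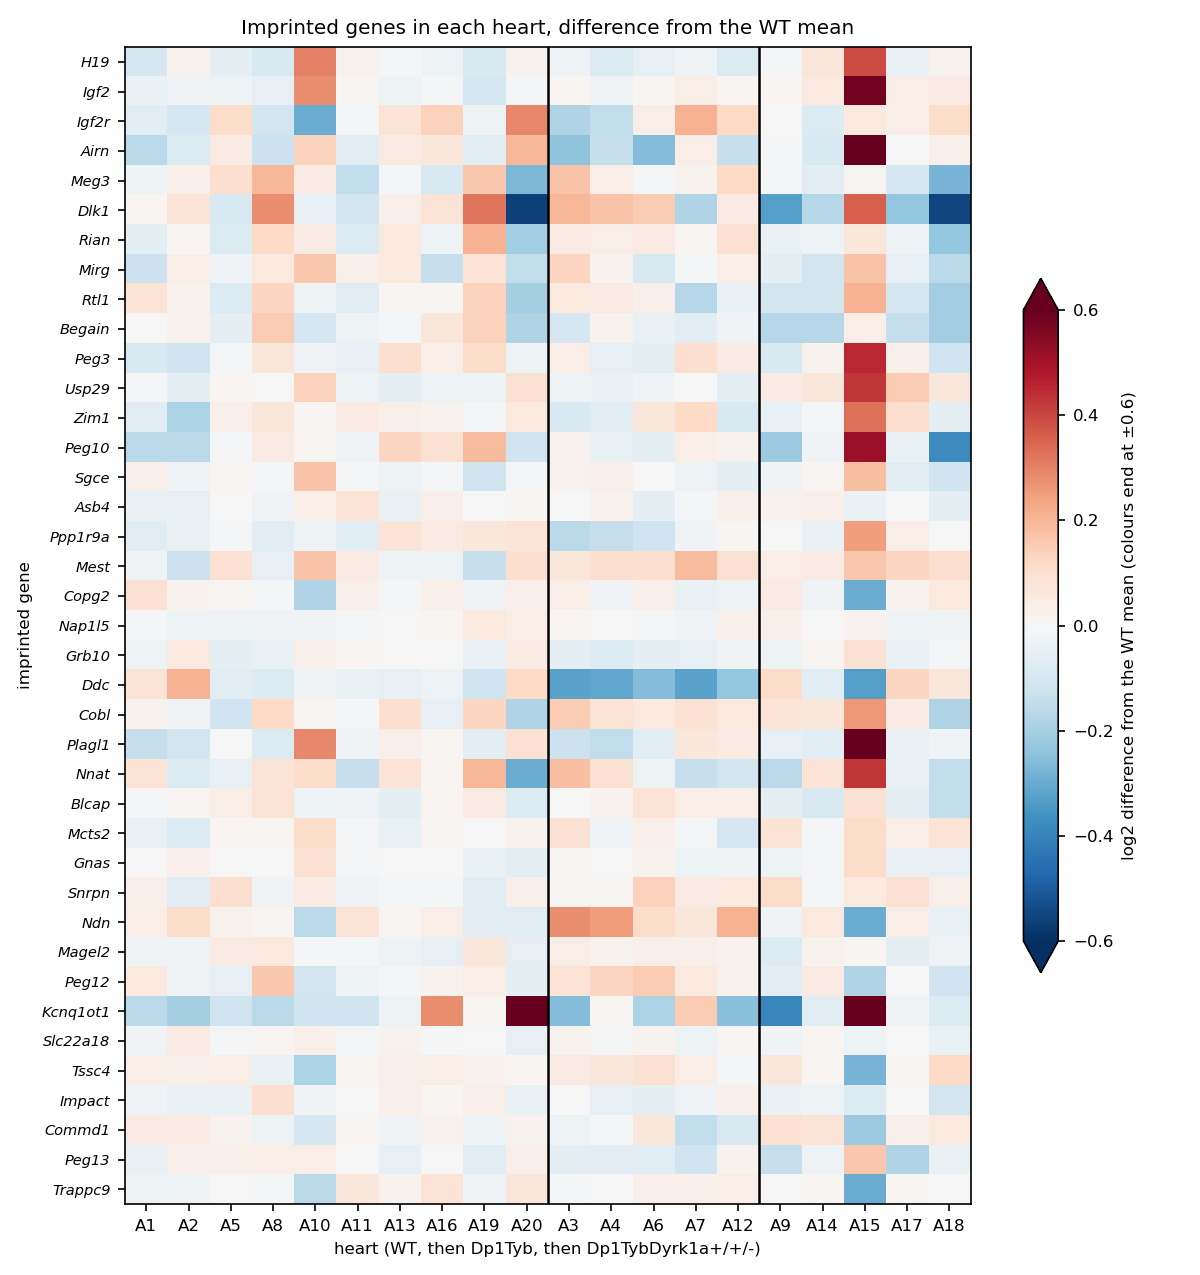
Difference of each imprinted gene (rows, by domain) from its WT mean in each heart (columns, WT, then Dp1Tyb, then Dp1TybDyrk1a+/+/-), in log2 units; red is higher and blue lower, with colors ending at ±0.6. Heart A15 is the strongest column, WT heart A10 shares much of its pattern, and Ddc is blue in all 5 Dp1Tyb hearts and in A15.

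Another pattern ran through the Dlk1-Dio3 domain of chromosome 12, and some genes of other domains shared parts of it. Dlk1 encodes a membrane protein of the Notch ligand family and, with Rtl1 and Begain, is made from the paternal allele, whereas Meg3, Rian and Mirg are long non-coding RNAs of the maternal allele. Dlk1 was 10.63 in WT heart A20 and 10.64 in A18, labelled Dp1TybDyrk1a+/+/-, against a WT median of 11.21. These 2 hearts held the 2 lowest values of all 20 hearts in each of the 6 genes of the domain that were tested. Genes of both parental alleles were low together, Meg3 at 12.06 and 12.05, Rian at 12.33 and 12.30 and Begain at 5.69 and 5.65 in A20 and A18. Rtl1 shares 6830 bases with Meg3, and its reads may not be told from those of Meg3. Both libraries were in lane 7, as were those of A12, A15, A16 and A17, where Dlk1 stood at 11.24, 11.55, 11.27 and 10.95.

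At the other end were WT hearts A19 and A8, with Dlk1 at 11.51 and 11.47 and all 6 genes above the WT mean. Among hearts labelled Dp1TybDyrk1a+/+/-, all 6 genes were below the WT mean in A9, A14, A17 and A18, and all 6 were above it in A15. Dlk1 was 10.86, 11.02, 11.55, 10.95 and 10.64 in A9, A14, A15, A17 and A18, and Meg3 was 12.32, 12.26, 12.34, 12.23 and 12.05. The log2 fold changes against WT were -0.18 for Dlk1 (SE 0.125, adjusted P = 0.654, limma) and -0.09 for Meg3 (SE 0.063, adjusted P = 0.672). Within lanes 3, 6 and 7 they were -0.21, -0.41 and 0.10 for Dlk1 and -0.10, -0.07 and 0.06 for Meg3. The positive values of lane 7 rested on A15: without it that lane gave -0.15 for Dlk1 and -0.01 for Meg3, 2 hearts against 2. Over all lanes Dlk1 was -0.32 (adjusted P = 0.220) without A15.

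In Dp1Tyb hearts A3, A4, A6, A7 and A12, Dlk1 was 11.39, 11.35, 11.34, 11.01 and 11.24 and Meg3 was 12.50, 12.37, 12.32, 12.35 and 12.45. Against WT the log2 fold changes were 0.08 (SE 0.125) and 0.07 (SE 0.063). Between the duplication genotypes all 6 genes of the domain had positive log2 fold changes in Dp1Tyb, from 0.05 to 0.26, and 0 of 6 passed the test. For Dlk1 the value of 0.26 became 0.40 without A15 (adjusted P = 0.114, limma) and 0.41 and called when hearts were weighted by their quality (adjusted P = 0.0197). For Meg3, 4 of 5 Dp1Tyb hearts lay above all 5 others (0.16, SE 0.073, adjusted P = 0.255).

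Pairs of neighboring or functionally linked genes were compared over the 10 WT hearts. Of 20 pairs listed, 18 had both genes tested, and 5 passed a permutation test of Pearson's r adjusted over the 18 pairs. H19 and Igf2, which share enhancers but are made from opposite alleles, gave r = 0.96 (permutation P = 0.00042, adjusted P = 0.00756) and Spearman's rho = 0.87 (P = 0.00234, adjusted 0.0421). Without A1 and A10, the hearts farthest from the median of H19, r was 0.80. Adjusted for lane r was 0.96, and over residuals of all 20 hearts 0.95. Within a single lane there were at most 4 WT hearts, too few for a correlation.

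Meg3 and Rian gave r = 0.82 (permutation P = 0.00400, adjusted P = 0.0240) and rho = 0.76 (P = 0.0147, adjusted 0.0661). Meg3 and Dlk1 gave r = 0.83 (permutation P = 0.00317, adjusted P = 0.0240) and rho = 0.61 (P = 0.0661, adjusted 0.150). Without A8 and A20 these r were 0.64 and 0.50. Adjusted for lane both were 0.75, with an adjusted P = 0.0572 by permutation, and over residuals of all 20 hearts they were 0.83 and 0.73.

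Plagl1 gave r = 0.87 with H19 (permutation P = 0.00725, adjusted P = 0.0326, rho = 0.70, P = 0.0300, adjusted 0.0900). With Igf2 it gave r = 0.86 (permutation P = 0.0119, adjusted P = 0.0427, rho = 0.61, P = 0.0666, adjusted 0.150). Both rested on heart A10: without A1 and A10 they were 0.38 and 0.45.

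Of the other pairs, Grb10 and Ddc reached r = 0.71 (permutation P = 0.0216, adjusted P = 0.0648) and rho = 0.81 (P = 0.00756, adjusted 0.0454), and r was 0.50 without A2 and A5. Over residuals of all 20 hearts the r of Grb10 and Ddc was -0.12. Without A10 and A15 it was 0.49 (adjusted P = 0.0882 by permutation). A15 held the lowest Ddc and the highest Grb10 value of all 20 hearts. Rian and Mirg gave r = 0.69 (permutation P = 0.0263, adjusted P = 0.0676) and rho = 0.81 (P = 0.00742, adjusted 0.0454), with r = 0.58 without A19 and A20. Igf2r and Airn gave r = 0.41 (permutation P = 0.235, adjusted P = 0.325) over all 10 hearts, rho = 0.53 (P = 0.124, adjusted 0.248) and r = 0.92 without A10 and A20, but r = -0.27 when adjusted for lane. Their genes share 28396 bases on opposite strands, and since the strand setting of the counting is not given in the sources used here, reads of the shared part may not be assigned to 1 gene with certainty. The remaining 10 pairs had r between -0.53 and 0.60, Igf2 and Igf2r at the lower end and Meg3 and Mirg at the upper. The r of Igf2 and Igf2r rested on A10 and was 0.39 without it.

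**Figure D4:**
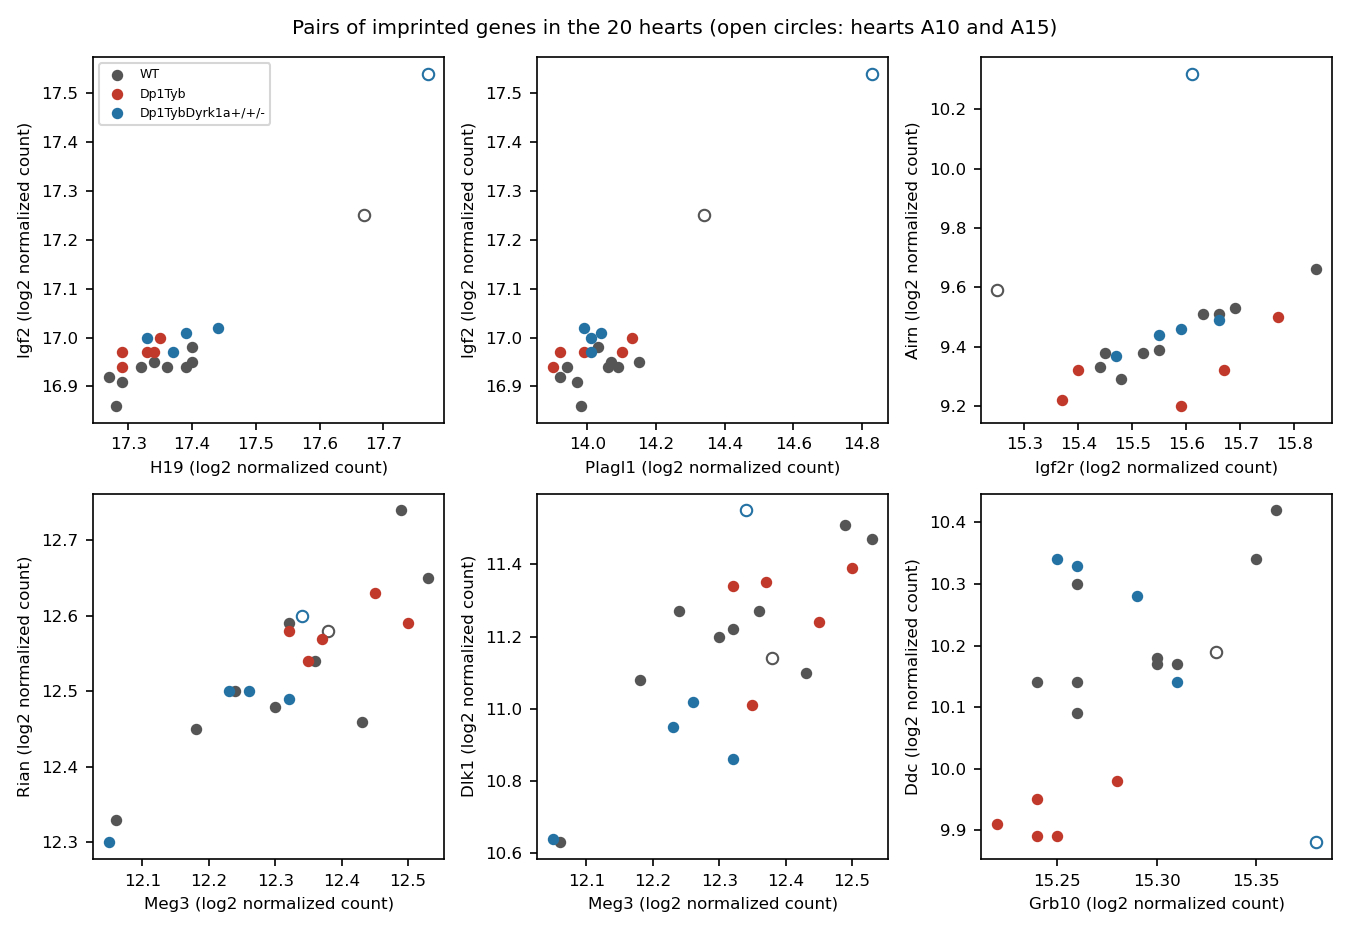
Log2 normalized counts of 6 pairs of imprinted genes against each other in the 20 hearts, colored by genotype, with A10 and A15 as open circles. H19 and Igf2 rise together through both, whereas Plagl1 and Igf2 are spread mainly by A10 and A15, and Dp1Tyb hearts lie below the WT hearts on the axis of Ddc.

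Imprinted genes as a set spread more between WT hearts than most genes of similar level. The SD over the 10 WT hearts was above the median of all tested genes in the same band of mean log2 value for 28 of 39 genes, and above its 75th percentile for 18. Without A10 these counts were 25 and 17. The 5 highest were Kcnq1ot1 (SD 0.262), Dlk1 (0.242), Igf2r (0.162), Nnat (0.146) and Meg3 (0.144), against band medians of 0.0539, 0.0553, 0.0773, 0.0539 and 0.0553. Kcnq1ot1 and Dlk1 spread more than 99.4% and 99.5% of the genes in their bands.

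Kcnq1ot1 was raised in WT hearts A16 and A20, at 9.74 and 10.09 against 9.26 to 9.47 in the other 8, and both of these libraries were in lane 7. Of the other hearts in lane 7, A15 was at 11.01, whereas A12, A17 and A18 were at 9.21, 9.44 and 9.38. The lowest SDs were those of Slc22a18 (0.0277) and Nap1l5 (0.0310), then Grb10 and Gnas (0.0404 each). Grb10 and Gnas are strongly expressed, at mean log2 values of 15.28 and 14.48, in a band with a median SD of 0.0773. Slc22a18 and Nap1l5 are weakly expressed, and the deposited scale compresses the differences of such genes. Genes are not independent replicates, so these counts are a description.

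**Figure D5:**
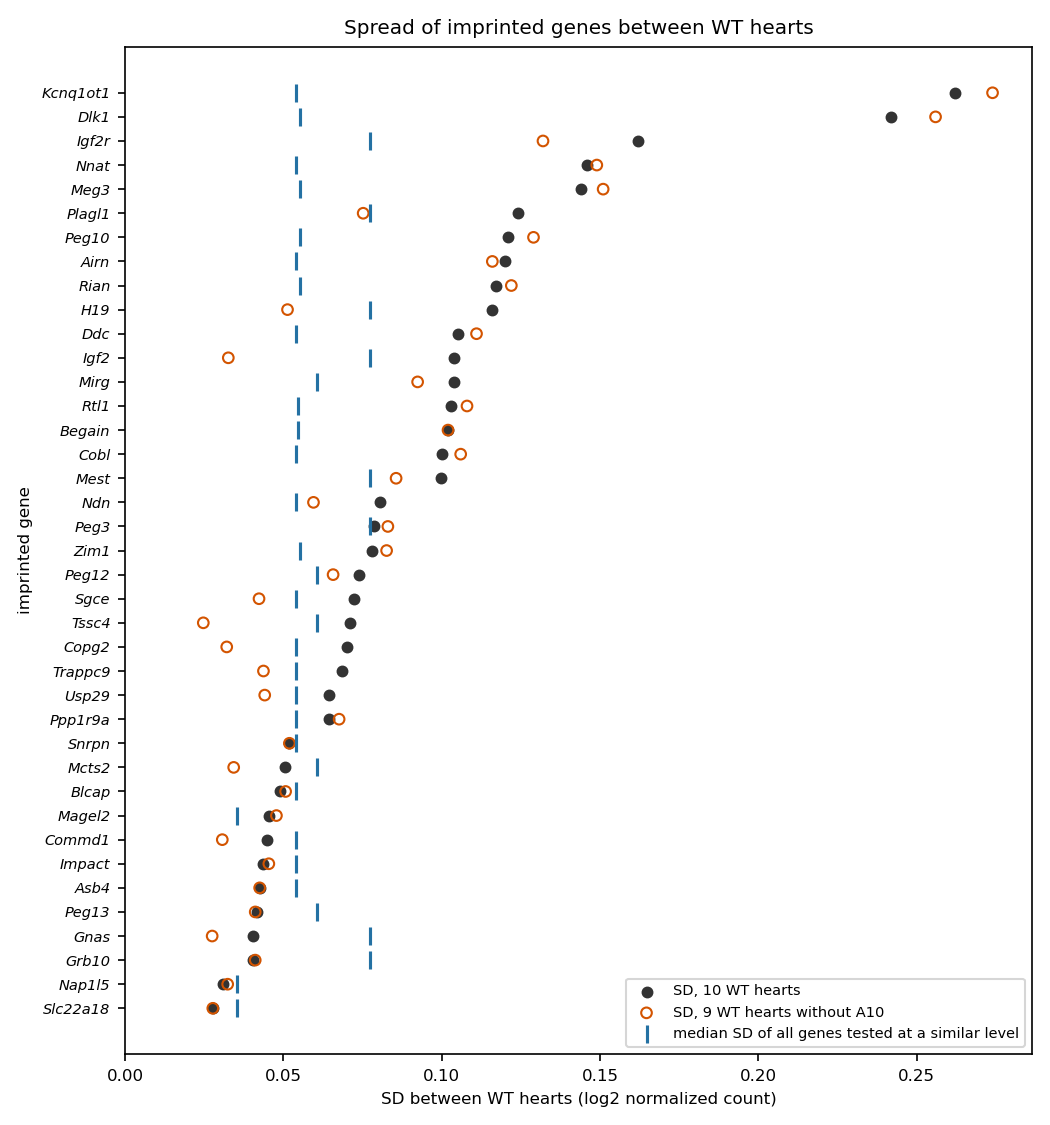
SD between WT hearts (horizontal axis, log2 units) of the 39 imprinted genes tested, with all 10 hearts (filled) and without A10 (open), beside the median SD of all tested genes in the same band of level (blue ticks). Kcnq1ot1 at 0.262 and Dlk1 at 0.242 stand far to the right of their ticks, and H19, Igf2 and Plagl1 move left when A10 is left out.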

How the data were processed

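RNA of 20 whole E13.5 hearts, 1 library per heart, had been sequenced by the authors from KAPA mRNA HyperPrep libraries on an Illumina HiSeq instrument. The submitters' processing notes name Trimmomatic 0.36, STAR 2.5.2a, RSEM 1.2.31, DESeq2 and the build GRCm38. The deposited values are log2 normalized counts, and per the labels no raw counts or depths go with them, so depth per heart is unknown. The exact transform and the strand setting are not given in the sources used here. The narrow spread of weak genes shows that the scale compresses their differences, which are understated.

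Hearts were grouped by the genotype in their labels. Genes whose normalized count averaged 10 or more over all hearts were tested with limma 3.58.1 (R 4.3.3), 1 fit of all 20 hearts with a trended variance, and P-values were adjusted over all 15304 genes by Benjamini-Hochberg at a threshold of 0.05. limma was used in place of the authors' count test because the unit is log2. The fit was tested on simulated data with independent normal noise. Those data held no distant hearts and no differences by lane or Xist, so that test does not bear on these. Single genes were also tested by exact two-sided permutation (scipy 1.17.1), and correlations with 100000 resamples. The permutation P-values of single genes are not adjusted. For genes picked by small limma P-values they are no independent support. With 5 hearts in a mutant group, P-values set a difference against the spread between these embryos. In limma that spread is estimated over all 20 hearts together.

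The 42 genes, the wider lists, the pairs and the markers were chosen with earlier results of these data known, in which Ddc was among the largest decreases in Dp1Tyb hearts. Full values were given for genes called in any comparison, for Ddc, Grb10, Cobl, H19, Igf2, Igf2r, Meg3, Dlk1, Peg3, Cdkn1c and Plagl1, for the 3 smallest P-values per comparison, and for the 5 highest and 3 lowest SDs. Kcnq1ot1, Airn, the other Dlk1-Dio3 genes and the genes named for A10 and A15 were chosen after their values were seen. Lengths are the union of exons in GENCODE M39, and coordinates and sequences are RefSeq's for GRCm38.p6. Replicate numbers are unique to each heart.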

Additional observations from a re-analysis of the deposited data

Results flagged for a closer look

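Within each genotype the highest and the lowest heart of each of the 39 imprinted genes tested were set against the others by the gap to the nearest heart over the whole range (Dixon's 95% limit). Of 117 groups tested 25 held a heart beyond the limit (21.4%). Chance gives about 1 in 20 for independent groups, but these groups share the same hearts and are not independent. All but 2 of the 25 were heart A15 or A10, which stood apart over all genes as well. In A15, 37.7% of all genes tested lay above the other 4 hearts and 38.2% below. The share of flagged groups over all genes was not computed, so the count is not a result about imprinted genes. The log2 value of A15 was high for H19 (17.77), Igf2 (17.54), Airn (10.32), Rtl1 (5.41), Peg3 (14.37), Usp29 (9.89), Ppp1r9a (11.01), Plagl1 (14.83), Gnas (14.60) and Kcnq1ot1 (11.01). It was low for Copg2 (10.14), Ndn (10.04), Tssc4 (8.22), Commd1 (9.13) and Trappc9 (8.74). WT heart A10 was high for H19 (17.67), Igf2 (17.25), Sgce (9.74) and Mcts2 (7.35) and low for Copg2 (10.26), Tssc4 (8.31), Commd1 (9.25) and Trappc9 (8.88). The other two were Dlk1, lowest in WT heart A20 (10.63), and Impact, highest in WT heart A8 (9.64). Both distant hearts also had the highest sums of mitochondrial transcripts, whose part in these values was not tested.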

How the results depend on the processing

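The log2 fold change of Ddc in Dp1Tyb against WT hearts kept its direction in all settings and lost its call in 1, Xist as a covariate (-0.249). Dp1Tyb against Dp1TybDyrk1a+/+/- was called for Ddc with a filter at a mean count of 100 (-0.269), median centring (-0.281), heart weights (-0.346), A10 and A15 left out (-0.347), the same with lane (-0.328) or with Xist (-0.291), and lay between -0.347 and -0.232 with 1 heart left out. In Dp1Tyb against WT 0 imprinted genes were called with Xist as a covariate, 2 with the stricter filter, median centring, only the groups compared, A10 and A15 left out, or the latter with Xist, and 3 with quantile normalization, heart weights, or lane without A10 and A15. Of all genes, 1.6% were called with Xist, and 3.77%, 3.05%, 5.09%, 7.7% and 5.4% in the settings with 2, in that order. In the settings with 3 the shares were 2.96%, 9.29% and 8.42%. With 1 heart left out 1 to 2 imprinted genes were called. Against WT, hearts labelled Dp1TybDyrk1a+/+/- had 2 calls with heart weights or without A10 and A15, and 1 with Xist and without them. Of all genes 2.23%, 1.39% and 1.51% were called in these settings. Between the duplication genotypes there were 1 without a variance trend, 2 with the stricter filter, median centring, or Xist without A10 and A15, 4 without A10 and A15 with or without lane, 6 with heart weights, and 0 to 2 with 1 heart left out. Of all genes 1.65% were called without a trend, and 2.4%, 1.47% and 1.56% in the settings with 2. The shares were 2.89% and 3.96% without A10 and A15, with and without lane, and 8.15% with heart weights. The median log2 fold change of the imprinted genes between these genotypes was 0.0346 with quantile normalization, 0.0252 without A10 and A15, 0.0256 with lane as well, and -0.006 to 0.0252 with 1 heart left out. The number of correlated pairs was 10 over residuals of all hearts, 3 with lane adjusted, 2 of the 16 pairs that had a value with quantile normalization, where Plagl1 and Igf2 turned to r = -0.45, and 1 to 5 with 1 WT heart left out. Of 44 uncalled log2 fold changes, those of the genes given in full, 14 took both signs with 1 heart left out, all of them at 0.12 or less in size. Where a call changed the cause was not tested. Leaving out A10 and A15, Xist, and their combinations were chosen after seeing the data. No paired analysis was possible because no replicate number is shared between genotypes. Depth is unknown, and the values of weak genes are compressed, so differences of Nap1l5, Slc22a18, Magel2 or Begain would be understated.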
